A study of Rattus norvegicus with 24 samples.

Results

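Vwf and 7 other genes of the blood vessel wall (Aplnr, Kdr, Flt1, Cdh5, Tek, Tie1 and Vegfa) were followed in the medial gastrocnemius muscle of 24 rats. They were chosen by gene symbol from a list of 9 endothelial and vascular genes, and 8 of the 9 were among the 10851 genes analysed. Pecam1 was not analysed here. The list was drawn up with the higher level of Vwf in monocrotaline rats already known, so the differences between monocrotaline and saline rats in these 8 genes are given as values without a test. The question was how the level of Vwf compares with that of the other endothelial genes in the same muscles.

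Endothelial cells line all blood vessels, and most of those in skeletal muscle belong to capillaries that run along the fibres. Vegfa is the growth factor that muscle fibres and other cells release to support capillary growth, and it acts through Kdr (VEGFR2), the main signalling receptor, and Flt1 (VEGFR1), which binds Vegfa tightly and limits its signal. Tek (Tie2) is the receptor of the angiopoietins and Tie1 its partner receptor. Cdh5 (VE-cadherin) joins endothelial cells to each other. Aplnr is the receptor of the peptide apelin. Vwf (von Willebrand factor) is a large glycoprotein that binds platelets and carries clotting factor VIII. Endothelial cells store it in Weibel-Palade bodies, and in most tissues its mRNA is more abundant in veins and larger vessels than in capillaries.

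The rats were male Wistar rats in 4 groups of 6. Sed rats received saline and stayed sedentary, Ex rats received saline and were trained on a treadmill, CC-Sed rats received a single injection of monocrotaline and stayed sedentary, and CC-Ex rats received monocrotaline and were trained. Monocrotaline is a plant alkaloid that damages the vessels of the lung and brings on right heart failure with muscle wasting (cardiac cachexia, CC). The CC groups hold only rats that survived and had a remodelled right ventricle. Each animal gave 1 library from the left leg, and total estimated counts lay between 37816239 and 50350554. Levels are CPM, counts relative to the library total, scaled by TMM, a correction for differences in library composition. Members had between 75 and 34922 estimated counts per rat, so the spread between animals and not counting error set the precision. All 8 genes were detected in every rat. CC-Ex replicate 1 stood apart from its group in Tie1 and CC-Ex replicate 5 in Vegfa, and values without a rat are given where they moved a difference. In whole muscle, fewer cells of a type and less RNA per cell cannot be told apart. The p-values of comparisons between groups set the difference against the spread between these animals.

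Promoter sequences from RefSeq (build GRCr8, 250 bases before to 50 after the start of a gene) matched 4 of the members, namely Kdr, Flt1, Tie1 and Vegfa. No promoter was matched for Vwf, Aplnr, Cdh5 or Tek. The promoters of the VEGF receptors and of Tie1 are shown since these receptors are the members set against Vwf for which a promoter was matched once each. Capitals mark GGAAG or its reverse complement CTTCC, the core of the sites that ETS factors bind, and these factors regulate many endothelial genes.
Kdr, chr14:32571813-32572112, plus strand: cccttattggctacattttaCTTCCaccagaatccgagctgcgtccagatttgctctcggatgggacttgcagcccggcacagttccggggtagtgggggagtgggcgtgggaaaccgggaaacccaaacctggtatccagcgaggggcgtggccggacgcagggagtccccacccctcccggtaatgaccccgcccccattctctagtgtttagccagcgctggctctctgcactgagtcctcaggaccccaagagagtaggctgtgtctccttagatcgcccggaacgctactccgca
Flt1, chr12:12333180-12333479, plus strand: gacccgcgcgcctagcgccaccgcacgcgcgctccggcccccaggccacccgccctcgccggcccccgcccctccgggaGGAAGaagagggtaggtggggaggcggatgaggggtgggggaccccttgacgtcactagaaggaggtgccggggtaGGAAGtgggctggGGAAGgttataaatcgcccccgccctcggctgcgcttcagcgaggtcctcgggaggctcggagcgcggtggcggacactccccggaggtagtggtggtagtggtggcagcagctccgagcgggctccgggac
Tie1, chr5:137304932-137305231, minus strand: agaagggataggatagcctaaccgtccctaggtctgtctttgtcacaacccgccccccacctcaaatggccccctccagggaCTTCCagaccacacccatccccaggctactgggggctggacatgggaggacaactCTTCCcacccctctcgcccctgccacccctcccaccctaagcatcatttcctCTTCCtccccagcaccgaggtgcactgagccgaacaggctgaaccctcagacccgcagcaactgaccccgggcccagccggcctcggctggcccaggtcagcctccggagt
Flt1 and Tie1 held 3 matches each and Kdr 1. The matches lay 171, 95 and 82 bases before the start of Flt1, 168, 113 and 61 bases before that of Tie1 and 230 bases before that of Kdr. Since 70.1% of the 33469 promoters of this length hold these letters, a match in 3 genes is a description only. Vegfa has 2 promoters in the table, of which 1 held the core.

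Vwf was higher in the monocrotaline rats of both comparisons. Its levels in Sed were 22.9 CPM in the lowest rat, 26.8 CPM at the median and 33.9 CPM in the highest. In CC-Sed the lowest, median and highest were 51.02, 79.7 and 96.8 CPM, so that 6 of 6 CC-Sed rats lay above the highest Sed rat. The group means were 28.2 CPM ± 4.36 (SD, n = 6) in Sed and 74.9 CPM ± 19.2 (SD, n = 6) in CC-Sed. The Log2FC (log2 of CC over its control) was 1.41 with a standard error of 0.26, or 2.65-fold.

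In the trained rats the higher level of Vwf was less even. Ex rats had 27.2 CPM in the lowest, 34.9 CPM at the median and 47.5 CPM in the highest animal. CC-Ex rats had 31.2, 75.0 and 133.1 CPM in the same order, and replicates 1 and 4, at 48.1 and 31.2 CPM, were near or inside the range of Ex. The means were 36.1 CPM ± 7.80 and 78.3 CPM ± 38.6 (SD, n = 6 each), a Log2FC of 1.12 with a standard error of 0.26. It was 0.90 without CC-Ex replicate 2 and 1.28 without CC-Ex replicate 4. Ordered by mean, the groups ran from Sed through Ex and CC-Sed to CC-Ex. Sed and Ex overlapped, Ex and CC-Sed did not, and CC-Sed and CC-Ex overlapped. CC-Ex had the widest spread, with a highest rat 4.27 times the lowest, against 1.48 times in Sed.

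**Figure D1:**
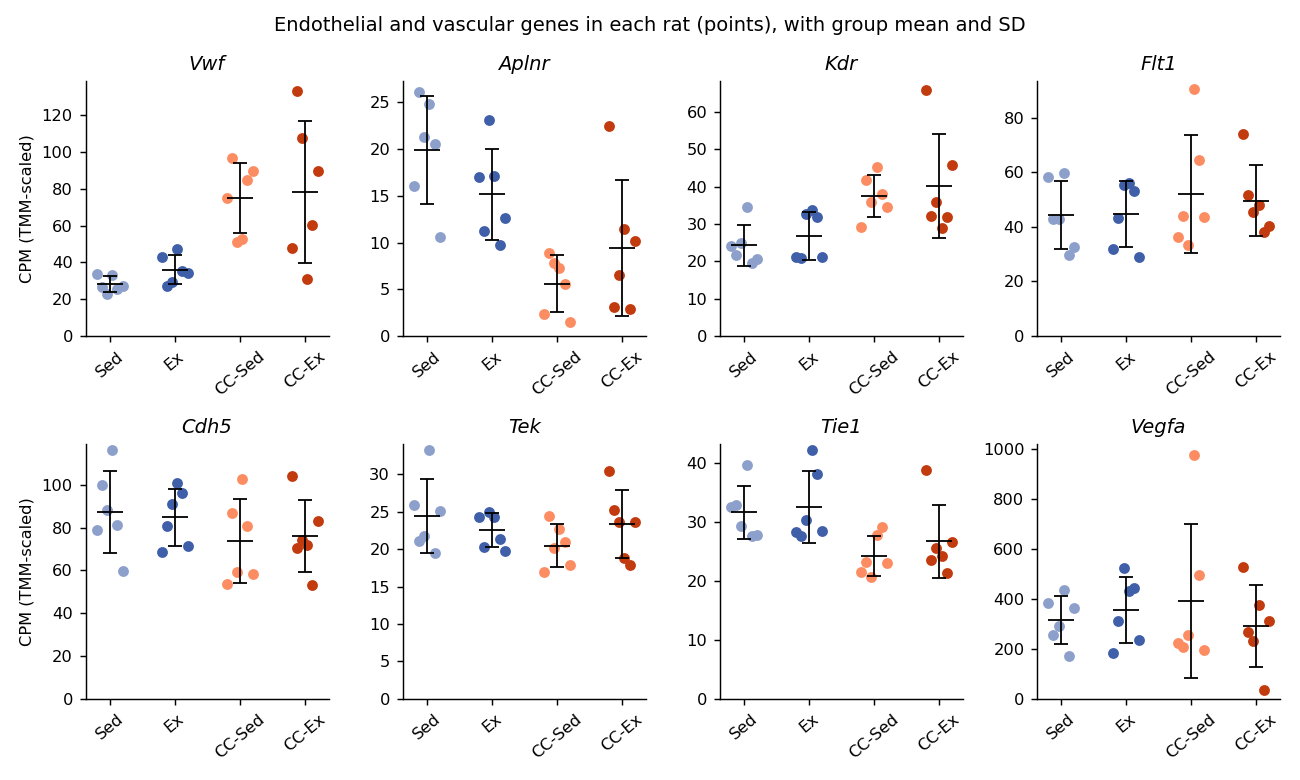
TMM-scaled CPM (vertical axes, linear and starting at 0) of the 8 genes in each rat of Sed, Ex, CC-Sed and CC-Ex; points are rats, bars the mean and SD of 6 rats. All 6 CC-Sed rats are above the highest Sed rat for Vwf and below the lowest Sed rat for Aplnr, and the other genes overlap between Sed and CC-Sed.

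The apelin receptor gene Aplnr lay in the opposite direction. Sed rats had 10.6 CPM in the lowest, 21.0 CPM at the median and 26.1 CPM in the highest animal. CC-Sed rats had 1.52, 6.41 and 8.93 CPM, so that 6 of 6 were below the lowest Sed rat. The Log2FC was -1.84 with a standard error of 0.45. In the trained rats the groups overlapped widely. Ex had 9.74, 14.8 and 23.1 CPM as lowest, median and highest values, and CC-Ex had 2.84, 8.30 and 22.5 CPM. CC-Ex replicate 1 was the highest of its group at 22.5 CPM, and the Log2FC of -0.69 (standard error 0.44) was -1.16 without it. The apelin gene Apln, named after its values were seen, averaged 2.71 CPM in Sed against 3.96 CPM in CC-Sed, with a Log2FC of 0.55 (edgeR adjusted p = 0.441).

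Vwf and Aplnr were thus the members whose Sed and CC-Sed rats did not overlap. Over all genes, 2.32% lay wholly higher and 1.29% wholly lower in CC-Sed, and in the trained comparison, where no member was free of overlap, the shares were 0.737% and 0.341%. By an adjusted p under 0.05, with which a gene is said here to pass, 4.3% of all genes passed as higher in Sed vs. CC-Sed and 2.16% as lower, and 1 member was counted on each side. In Ex vs. CC-Ex, 0.875% of all genes passed as higher and 0.12% as lower, and 1 member, Vwf, was counted as higher. Since the list was chosen from these comparisons, nothing is read from the members' counts.

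The VEGF receptors were not alike. Kdr was at 19.6, 22.9 and 34.5 CPM (lowest, median and highest) in Sed and at 29.1, 36.9 and 45.3 CPM in CC-Sed, a Log2FC of 0.63 with a standard error of 0.19. In Ex it was at 20.8, 26.5 and 33.6 CPM and in CC-Ex at 28.9, 33.98 and 65.9 CPM, a Log2FC of 0.58 with a standard error of 0.19. Without CC-Ex replicate 1, the rat at 65.9 CPM, it was 0.38. The Log2FC of Kdr was smaller than that of Vwf in both comparisons, and its groups overlapped.

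Flt1 differed by less than its spread. CC-Sed rats averaged 52.04 CPM ± 21.7 against 44.3 CPM ± 12.5 in Sed, and CC-Ex rats 49.6 CPM ± 12.9 against 44.7 CPM ± 12.1 in Ex (SD, n = 6 each). The Log2FC of 0.23 (standard error 0.24) in sedentary rats was 0.00088 without CC-Sed replicate 4, the rat with the highest level of 90.4 CPM. In trained rats the Log2FC was 0.15 (standard error 0.24), and it was 0.00075 without CC-Ex replicate 1.

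The angiopoietin receptors and the junction gene Cdh5 had means that were lower or alike in CC rats. Tie1 was at 27.7, 30.9 and 39.7 CPM (lowest, median and highest) in Sed and at 20.7, 23.1 and 29.2 CPM in CC-Sed, a Log2FC of -0.39 with a standard error of 0.14. The overlap rested on CC-Sed replicates 4 and 5, at 27.8 and 29.2 CPM. In trained rats the Log2FC of Tie1 was -0.29 (standard error 0.14), with CC-Ex replicate 1 far above the rest of its group at 38.8 CPM.

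Tek had a Log2FC of -0.26 (standard error 0.13) in sedentary rats and of 0.05 (standard error 0.13) in trained rats, and the latter sign turned with the scaling of the libraries (-0.0094 with upper-quartile scaling). Its means lay between 20.5 and 24.5 CPM in the 4 groups. Cdh5 had a Log2FC of -0.25 (standard error 0.18) in sedentary and of -0.16 (standard error 0.18) in trained rats, with means from 73.7 CPM in CC-Sed to 87.4 CPM in Sed. Without Sed replicate 4, the sedentary values were -0.15 for Cdh5 and -0.15 for Tek. The trained value of Cdh5 was -0.26 without CC-Ex replicate 1 and -0.081 without CC-Ex replicate 5. All 3 genes had lower means in CC-Sed than in Sed, where the mean of Vwf was 2.65-fold higher.

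Vegfa, the ligand, varied widely. Among saline rats, Sed spanned 171.1 to 434.9 CPM around a median of 326.1 CPM, and Ex 182.1 to 522.0 CPM around 370.2 CPM. Among monocrotaline rats, CC-Sed spanned 193.4 to 974.4 CPM around a median of 238.1 CPM, and CC-Ex 35.5 to 527.0 CPM around 287.8 CPM. All 4 groups overlapped. The Log2FC was 0.31 (standard error 0.45) in sedentary rats and -0.28 (standard error 0.45) in trained rats. Both rested on single animals: without CC-Sed replicate 4, at 974.4 CPM, the first was -0.21, and without CC-Ex replicate 5, at 35.5 CPM, the second was -0.06.

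**Figure D2:**
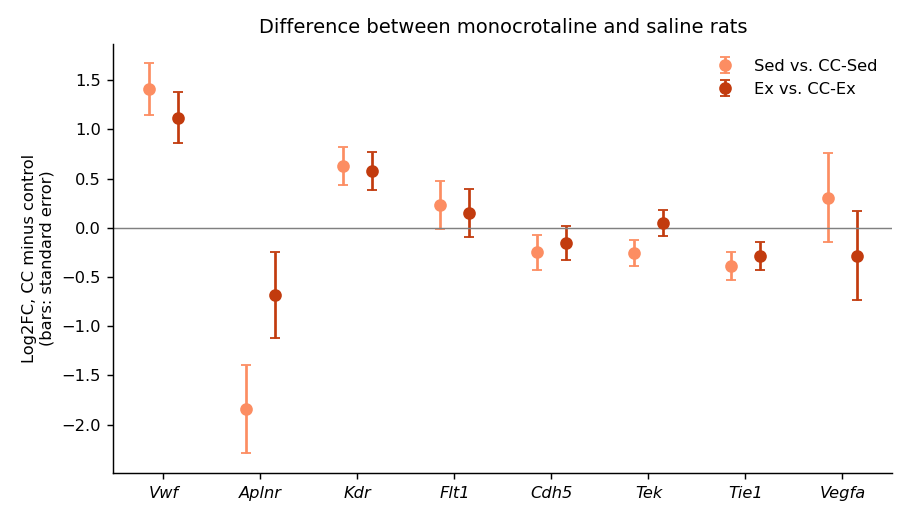
Log2FC of monocrotaline over saline rats (vertical axis) for the 8 genes, in sedentary (light) and trained (dark) rats; bars are standard errors from the model of 24 rats. Vwf lies at 1.41 and 1.12, Aplnr at -1.84 and -0.69, Kdr near 0.6 in both, and the remaining genes between -0.39 and 0.31.

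The level of Vwf was also set against the other genes of the same rat. For each animal the mean log2 CPM of the 7 other members was subtracted from the log2 CPM of Vwf. This log2 ratio had a mean of 0.97 ± 0.67 in CC-Sed against -0.69 ± 0.22 in Sed, and of 0.84 ± 1.04 in CC-Ex against -0.32 ± 0.39 in Ex (SD, n = 6 each). The zero of this scale depends on transcript lengths and has no meaning of its own. CC-Sed exceeded Sed by 1.66, and 6 of 6 CC-Sed rats lay above the highest Sed rat. CC-Ex exceeded Ex by 1.16, and 4 of 6 CC-Ex rats lay above the highest Ex rat. CC-Ex replicates 1 and 4, at -0.51 and -0.40, lay among the Ex rats. Part of these differences comes from Aplnr, which is among the 7 genes subtracted.

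**Figure D3:**
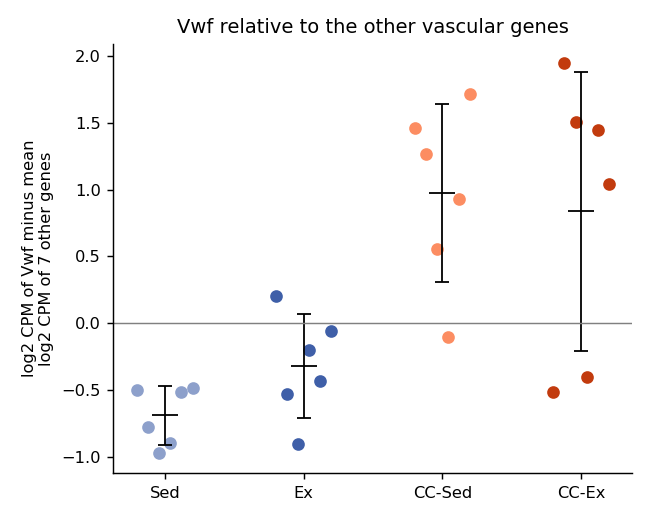
Log2 CPM of Vwf minus the mean log2 CPM of the 7 other genes (vertical axis) in each rat by group; points are rats, bars the mean and SD of 6 rats. All CC-Sed rats are above all Sed rats, while 2 CC-Ex rats, at -0.51 and -0.40, lie among the Ex rats.

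Training was not used to choose the genes, so it was tested. No member passed in Sed vs. Ex, in CC-Sed vs. CC-Ex or in the interaction, which asks whether the monocrotaline difference depends on training (edgeR's quasi-likelihood test, adjusted over all genes). No gene of the 10851 passed in these comparisons either (percent called 0.0), while 118, 234 and 154 genes had an unadjusted p under 0.05. DESeq2 and limma-voom also called 0 genes. None of the members had an unadjusted p under 0.05. The interaction is the difference between the trained and the sedentary monocrotaline comparison, so its test is not independent of how the genes were chosen.

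Vwf had a Log2FC of 0.36 (standard error 0.26) from Sed to Ex and of 0.06 (standard error 0.26) from CC-Sed to CC-Ex, and the latter changed sign with 4 of the 12 rats left out in turn. Its interaction was -0.29 (standard error 0.36, edgeR adjusted p = 0.9996). It lay between -0.51 without CC-Ex replicate 2 and -0.13 without CC-Ex replicate 4, and was -0.054 with limma-voom and quality weights. The smallest unadjusted p among the members belonged to Aplnr, whose interaction was 1.16 (standard error 0.62, adjusted p = 0.9996) and lay between 0.69 without CC-Ex replicate 1 and 1.36 without CC-Ex replicate 5. From CC-Sed to CC-Ex the mean of Aplnr went from 5.58 to 9.42 CPM (Log2FC 0.76, standard error 0.44, edgeR adjusted p = 0.9999). A p above the threshold does not show that trained and sedentary rats were alike.

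Differences between rats of the same group gave a further contrast between Vwf and the other genes that did not use the group means. After each group's mean was subtracted from log2 CPM, the other 7 members tended to go up and down together. Their 21 pairs had Pearson's r from 0.344 to 0.838 over 24 rats, with a median of 0.649, and 20 of the 21 had a Benjamini-Hochberg adjusted p under 0.05 (two-sided permutation within groups, adjusted over the 21 pairs). The pair above it was Aplnr and Flt1. With Spearman's rho the pair Aplnr and Tie1 was above it as well. Without the 2 rats farthest from the median of 1 gene of each pair, r ran from 0.297 (Aplnr and Flt1) to 0.761 (Cdh5 and Tie1). Within the 6 Sed rats alone, it ran from -0.271 (Aplnr and Vegfa) to 0.933 (Aplnr and Cdh5).

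The closest pair was Kdr and Tie1. Their r was 0.838 (permutation p = 4e-05) and rho 0.777 (permutation p = 0.00011), and r was 0.726 without the 2 rats farthest from the median of Kdr. Cdh5 and Tie1 had an r of 0.800 and Flt1 and Tie1 an r of 0.782. Among 10850 other genes, Tie1 was the 5th closest to Kdr, and Kdr the 11th closest to Tie1. Vegfa was closest to Flt1, with an r of 0.723, and no member was among the 5% of genes most like Vegfa.

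The correlations of Vwf were lower, and the difference between the 2 sets of correlations was not tested. Its r with the 7 others ran from -0.377 for Aplnr to 0.300 for Tek, with a median of -0.019. None of the 7 had an adjusted p under 0.05, and the smallest was 0.861 for r and 0.675 for rho (two-sided permutation within groups, adjusted over 7 pairs). With Tie1, Vwf had an r of 0.062 (permutation p = 0.836) and a rho of 0.241 (permutation p = 0.294), and r was 0.096 without CC-Ex replicates 2 and 4, the rats farthest from the median of Vwf. Within Sed alone, the 6 rats gave an r of 0.705 for this pair, and within CC-Ex an r of -0.227. In Sed, Vwf also had an r of 0.758 with Tek, 0.711 with Flt1, 0.634 with Vegfa and 0.517 with Kdr. It was 0.229 with Cdh5 and -0.041 with Aplnr in that group. Within CC-Sed the 7 values ran from -0.509 to 0.070. These values within single groups were not tested.

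**Figure D4:**
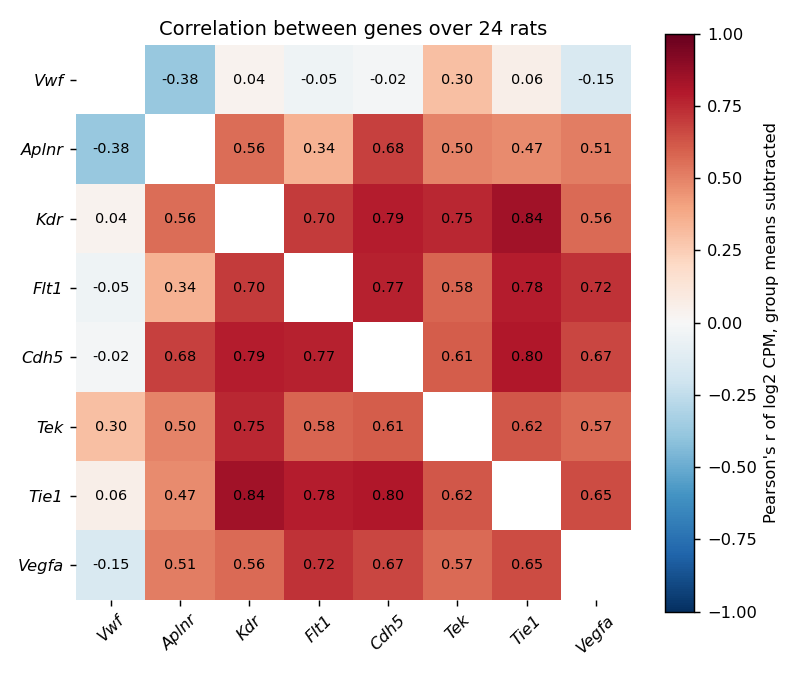
Pearson's r between log2 CPM of each pair of genes over 24 rats after subtraction of the group means; red is positive and blue negative. The 21 pairs without Vwf lie between 0.34 and 0.84, and the row of Vwf between -0.38 and 0.30.

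Library composition moved with these genes. The log2 of the TMM factor, also with group means subtracted, had an r of 0.513 with Vwf and between -0.576 and -0.346 with the 7 others, over 24 rats. Total counts had an r between -0.266 and 0.138 with the 8 genes. With upper-quartile scaling, the r of Vwf was 0.028 with Flt1 and 0.088 with Cdh5. The part of library composition in these correlations was not tested further.

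The genes most like Vwf were outside the vascular lists. With group means subtracted, the 5 highest were Appl2 (r = 0.799), Nrbp2 (r = 0.779), Wdpcp (r = 0.775), Nek6 (r = 0.768) and Csrp1 (r = 0.766) over 24 rats, chosen as the top of 10850 genes. Appl2 codes for an adaptor protein and Csrp1 for a LIM domain protein. With the levels as they are, so that the group differences enter, they were Appl2 (0.925), Nrbp2 (0.917), Aldoc (0.907), Pxn (0.869) and Pfkl (0.865). Aldoc and Pfkl code for glycolytic enzymes. On the first measure Tek ranked 1991st and was the member nearest to Vwf. On the second, Kdr was the nearest, with an r of 0.579 and rank 878, and Aplnr had the lowest r of the members, -0.718.

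The wider vascular programme was read from 9 lists with 126 genes, of which 105 were analysed. Of these, 8 rose and 3 fell in Sed vs. CC-Sed (10.5% passed, against 6.46% of all genes), and 4 rose and 0 fell in Ex vs. CC-Ex (3.81%, against 0.995%). The lists were chosen with earlier results of these data known, so nothing is read from these shares. The adjusted p-values of list genes in both comparisons carry the same limit. The median Log2FC over the 105 genes was 0.05 in sedentary and -0.03 in trained rats, against 0.02 and 0.01 over all genes. With upper-quartile scaling, which moved the split over all genes in Sed vs. CC-Sed from 467 of 701 higher to 365 of 702, 7 list genes rose and 3 fell. The CC-Ex count depended on single animals: it was 0 whenever 1 of 8 rats (any Ex rat, or CC-Ex replicate 5 or 6) was left out, and 7 without CC-Ex replicate 1. The CC-Sed count was 3 without Sed replicate 2 or 3 or without CC-Sed replicate 1, 3 or 6, and 20 without CC-Sed replicate 4. With each rat left out in turn, Pgf, Notch4 and Adm passed in 12 of 12 sedentary fits, the 8 others in 2 to 6, and the 4 genes of the trained comparison in 2 to 4 of 12.

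Among ligands and co-receptors, Pgf (placental growth factor, a ligand of Flt1) rose. Pgf was between 0.52 and 1.66 CPM in Sed and between 1.26 and 7.97 CPM in CC-Sed, with 5 of 6 CC-Sed rats over the highest Sed rat (Log2FC 2.26, standard error 0.48, edgeR adjusted p = 0.0137). In trained rats its Log2FC was 2.01 (standard error 0.48, adjusted p = 0.0434). CC-Ex replicates 1 and 4, at 1.00 and 0.72 CPM, were in the range of Ex, as they were for the ratio of Vwf. Of 9 genes in this list, 1 rose in each comparison. Flt4 (VEGFR3), the receptor of Vegfc, had a Log2FC of 0.49 (adjusted p = 0.0668) and 0.03 (adjusted p = 0.911, with upper-quartile scaling -0.039). Angpt2, an angiopoietin stored with Vwf in Weibel-Palade bodies and named after its values were seen, had a Log2FC of 0.88 (standard error 0.33, adjusted p = 0.0955) and 0.92 (standard error 0.33, adjusted p = 0.123).

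Of 12 Notch and BMP genes, 2 rose in sedentary and 1 in trained rats. Notch4, the Notch receptor found mainly in endothelium, was between 18.1 and 26.4 CPM in Sed and between 32.2 and 37.9 CPM in CC-Sed, with no overlap (Log2FC 0.60, standard error 0.12, edgeR adjusted p = 0.00834). In trained rats it was between 20.1 and 27.5 CPM in Ex and between 28.5 and 48.6 CPM in CC-Ex, again with no overlap (Log2FC 0.58, standard error 0.12, adjusted p = 0.0325). Notch4 was more even across rats than Vwf. Dll4, a ligand of Notch receptors on endothelial cells, rose in sedentary rats (Log2FC 0.69, standard error 0.20, adjusted p = 0.0423), with 6 of 6 CC-Sed rats over the highest Sed rat. It did not pass with upper-quartile scaling (adjusted p = 0.0689), nor in trained rats (Log2FC 0.41, adjusted p = 0.213).

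Surface and junction genes and transcription factors included the 3 that fell. Of 16 surface and junction genes, Jam2 (Log2FC -0.55, standard error 0.15, edgeR adjusted p = 0.0400) and Cd34 (Log2FC -0.76, standard error 0.23, adjusted p = 0.0498) fell in CC-Sed, and no gene of the list passed in trained rats. Jam2 is a junction adhesion molecule, and Cd34 is a surface sialomucin of capillary endothelium, also found on progenitor cells and fibroblasts. Of 14 transcription factors, 1 passed: the ETS factor Elk3 fell in CC-Sed (Log2FC -0.69, standard error 0.18, adjusted p = 0.0325). For Cd34 and Elk3, 6 of 6 CC-Sed rats were below the lowest Sed rat. Erg, the ETS factor that maintains endothelial identity, and Egfl7, a protein secreted by endothelium, both named after their values were seen, had a Log2FC of -0.01 (adjusted p = 0.959) and -0.04 (adjusted p = 0.889) in sedentary rats. Sox17, an arterial factor, had 0.42 (adjusted p = 0.0974). The surface and junction genes Esam and Emcn were also named after their values were seen. Esam had 0.31 (adjusted p = 0.148) in sedentary and 0.33 (adjusted p = 0.170) in trained rats. Emcn had -0.28 (adjusted p = 0.366) in sedentary and -0.38 (adjusted p = 0.255) in trained rats.

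Among 12 vasoactive genes, Adm rose in both comparisons. Adm codes for adrenomedullin, a peptide that widens vessels. It was between 1.44 and 2.42 CPM in Sed and between 1.56 and 12.0 CPM in CC-Sed, with CC-Sed replicate 4 the single rat inside the Sed range (Log2FC 1.83, standard error 0.41, edgeR adjusted p = 0.0147). In trained rats the Log2FC was 1.79 (standard error 0.41, adjusted p = 0.0377), and CC-Ex replicates 1 and 4, at 2.23 and 2.26 CPM, were again inside the range of Ex. Ednrb, an endothelin receptor, had a Log2FC of 0.71 (adjusted p = 0.0775) and 0.63 (adjusted p = 0.149). Nos3, the nitric oxide synthase of endothelium and named after its values were seen, had 0.16 (adjusted p = 0.579) and 0.02 (adjusted p = 0.966).

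Other genes tied to Weibel-Palade bodies did not pass (edgeR's quasi-likelihood test). Cd63, a membrane protein of these and other vesicles, had a Log2FC of 0.71 (adjusted p = 0.112) and 0.54 (adjusted p = 0.249). Selp (P-selectin) and Rab27a, named after their values were seen, had 0.37 (adjusted p = 0.541) and -0.03 (adjusted p = 0.955) in sedentary rats. In trained rats Selp had 0.62 (adjusted p = 0.313) and Rab27a -0.39 (adjusted p = 0.470). Selp was low, with means of 0.89 CPM in Sed and 1.13 CPM in CC-Sed.

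The hypoxia list was the one with the highest median, 0.76 in sedentary and 0.48 in trained rats over 9 genes. Egln3 (an oxygen-sensing prolyl hydroxylase), Bnip3 (a mitophagy receptor) and Ankrd37 rose in CC-Sed, with Log2FC values of 1.11, 1.31 and 1.00 and edgeR adjusted p-values of 0.0446, 0.0484 and 0.0225. In CC-Ex, Egln3 rose (Log2FC 1.69, standard error 0.33, adjusted p = 0.0325), and it did not pass without replicate 5 (Log2FC 1.19, adjusted p = 0.0557). Bnip3 had 1.501 in trained rats (adjusted p = 0.0585), and 0.77 without replicate 5. Ankrd37 did not pass in trained rats (Log2FC 0.48, adjusted p = 0.241). Its level was low, between 0.51 and 1.37 CPM in Sed and between 1.06 and 1.855 CPM in CC-Sed. These genes are expressed by muscle fibres as well as by vessels. In CC-Ex replicate 5, Bnip3 and Egln3 were at their highest levels of the 24 rats, 2693 and 722.9 CPM. Vegfa, a classical hypoxia target, was at its lowest there. Ankrd37 was at 0.91 CPM in this rat, against a CC-Ex median of 1.23 CPM. What set these levels was not tested.

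Promoters of 9 of the 11 genes that passed were matched in RefSeq. The promoters of Ankrd37 and Bnip3 are shown as those of hypoxia genes that passed and held the core of the hypoxia response element. This core is ACGTG, or CACGT on the other strand, and is marked in capitals. None of the 4 members with a matched promoter held it, and Vwf was not among these 4.
Ankrd37, chr16:53001257-53001556, plus strand: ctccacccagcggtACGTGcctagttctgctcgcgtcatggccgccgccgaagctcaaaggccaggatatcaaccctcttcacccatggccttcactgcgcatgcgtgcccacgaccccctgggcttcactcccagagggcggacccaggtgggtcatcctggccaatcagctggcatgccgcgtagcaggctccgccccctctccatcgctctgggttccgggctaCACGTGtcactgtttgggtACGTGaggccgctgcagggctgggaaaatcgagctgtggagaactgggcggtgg
Bnip3, chr1:203154913-203155212, minus strand: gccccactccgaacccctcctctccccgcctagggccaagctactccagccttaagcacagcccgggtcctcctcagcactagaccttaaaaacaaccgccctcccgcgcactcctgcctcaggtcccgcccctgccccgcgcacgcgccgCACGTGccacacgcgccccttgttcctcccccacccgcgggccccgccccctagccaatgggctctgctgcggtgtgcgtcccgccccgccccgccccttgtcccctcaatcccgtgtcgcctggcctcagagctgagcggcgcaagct
ACGTG was found 4 times for Ankrd37, starting 236, 23, 22 and 4 bases before the gene start, and 2 times for Bnip3, at 99 and 98 bases, counting both strands. The neighbouring pairs overlap, since CACGTG holds the core on both strands. The core is present in 19.3% of all 33469 promoters and in 4 of the 9 matched here, including those of Elk3 and Cd34, which fell in CC-Sed. These matches are a description only. It was not found in the window of Egln3, the third hypoxia gene that passed. Its absence from the Vegfa windows says only that these letters are not within these 300 bases.

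**Figure D5:**
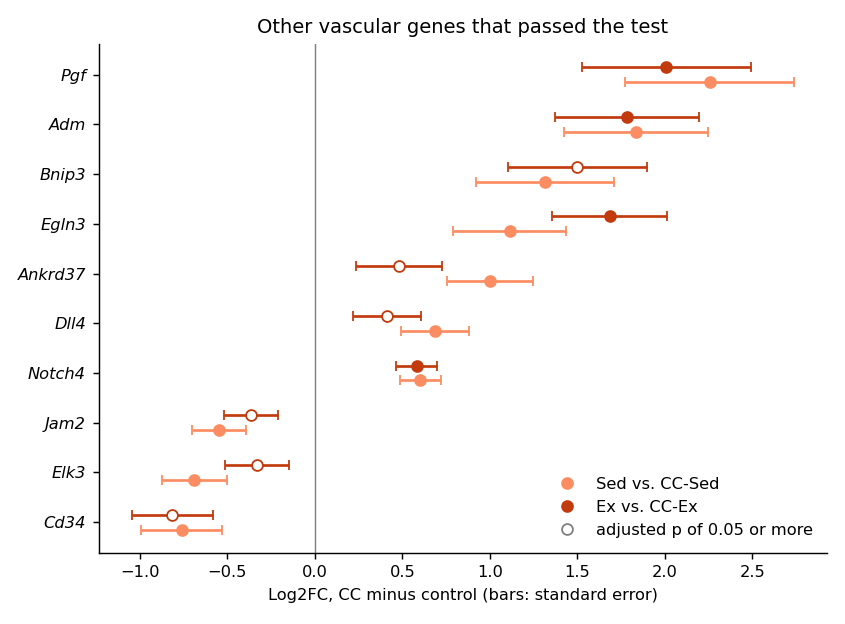
Log2FC of monocrotaline over saline rats (horizontal axis) for 10 other vascular genes that passed in either comparison; bars are standard errors, filled points passed and open points did not. Of the 10, 7 lie above zero and 3 below, and filled dark points mark Pgf, Adm, Egln3 and Notch4.

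The lists of capillary lipid transport and of pericytes and vascular smooth muscle held no gene that passed. Of 4 genes of capillary lipid transport, Meox2 and Tcf15, a pair of transcription factors of muscle capillaries, had a Log2FC of -0.65 (edgeR adjusted p = 0.0537) and -0.68 (adjusted p = 0.157) in sedentary rats. Of 11 genes of pericytes and vascular smooth muscle, Pdgfb, the ligand that recruits pericytes, had -0.52 (adjusted p = 0.139), and Myl9, a smooth muscle myosin light chain, had -0.57 (adjusted p = 0.172). In Ex vs. CC-Ex, 9 of these 11 genes had a Log2FC below 0. An unadjusted p under 0.05 was seen in 6 of the 11, counting both directions. Pdgfrb, named after its values were seen, was 1 of the 6 and was higher (Log2FC 0.35). Over all 10851 genes, 2448 had an unadjusted p under 0.05 and 51.6% had a Log2FC above 0 in this comparison.

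Markers of other cells were checked beside these results. No gene of the leukocyte, fibroblast, adipocyte, erythroid, platelet, lymphatic, muscle fibre or slow-fibre lists passed in either comparison. Platelet precursors also make Vwf, and of their 5 markers 1 was analysed, Itga2b, at 0.37 to 1.32 CPM over the 24 rats (Log2FC -0.15 and 0.23). The 3 erythroid genes summed to between 49.9 and 129.8 CPM in Sed, 92.2 and 209.6 CPM in Ex, 50.5 and 409.1 CPM in CC-Sed, and 33.8 and 960.0 CPM in CC-Ex. The 5 fibroblast markers had a median sum of 638.3 CPM in CC-Sed against 1299 CPM in Sed, and of 386.3 CPM in CC-Ex against 1662 CPM in Ex. The 4 slow-fibre markers varied most. They summed to between 56.8 and 2102 CPM in Sed, 59.9 and 6439 CPM in Ex, 81.0 and 7381 CPM in CC-Sed, and 16.9 and 5285 CPM in CC-Ex. Their median sum was 3605 CPM in CC-Sed against 973.1 CPM in Sed, and 2956 CPM in CC-Ex against 1953 CPM in Ex. The Log2FC values of the 4 genes lay between 1.64 and 2.01 in sedentary rats and between -0.13 and 0.39 in trained rats. Their part in the values of the vascular genes was not tested.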

How the data were processed

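RNA from the medial gastrocnemius of 24 rats, 6 in each of Sed, Ex, CC-Sed and CC-Ex, was sequenced from poly-A selected, stranded libraries. Per the submitters' processing notes, the authors trimmed reads with Trim Galore, quantified them with Salmon on mRatBN7.2 and used DESeq2 1.44.0. The deposited table holds estimated counts per gene as whole numbers, none under 10 in any rat, so genes low in some rats were already left out. Total counts per rat lay between 37816239 and 50350554. Groups and replicate numbers came from the labels.

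The analysis used edgeR 4.0.16 under R 4.3.3. Filtering by expression removed 0 genes, libraries were scaled by TMM, and the 10851 genes were fitted by quasi-likelihood with 1 mean per group and tested with Benjamini-Hochberg adjustment. A gene passed with an adjusted p under 0.05. Standard errors were obtained from the Log2FC and its F statistic. The authors' criterion for a DEG, which also asks for a Log2FC of at least 1 in size, was tried as an alternative. On simulated data with 200 genes changed by a log2 of 2 in Sed vs. CC-Sed among 10851 genes, the model recovered 199 with 11 false calls. The simulated spread of a gene was the same in all groups. Smaller changes and groups of unlike spread were thus not covered. Correlations used log2 CPM (prior count of 2) with group means subtracted and 1e+05 permutations within groups.

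The members, the gene lists and the tests were chosen with earlier results of these data known. Named list genes were those that passed in either monocrotaline comparison and at least the 2 of each list with the smallest p in Sed vs. CC-Sed. Others are marked as named after their values were seen. Of the list genes that passed, 1 is counted but not reported here. The family of 21 correlations among the other members was added after the data were seen. RefSeq promoters are of build GRCr8, not that of the counts, and were matched by symbol. Alternatives were DESeq2 1.42.0, upper-quartile scaling, no filter, a minimum of 1 CPM in each rat, a model of just the 12 rats compared, the replicate block, the library number as a covariate, limma-voom with quality weights (limma 3.58.1) and leaving out each rat. Correlations and the Vwf ratio were repeated with another prior count and scaling. Figures were drawn with matplotlib 3.10.9.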

Additional observations from a re-analysis of the deposited data

Results flagged for a closer look

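In 32 groups of 6 rats (8 genes in 4 groups), 2 rats stood apart from the rest of their group by Dixon's criterion, which chance meets in about 1 in 20 groups. Tie1 was at 38.8 CPM in CC-Ex replicate 1, the highest of the group, with the 5 others between 21.34 and 26.66 CPM. In the same rat Aplnr, Kdr, Flt1, Cdh5, Tek and Vegfa were also the highest of CC-Ex, and Vwf was at 48.1 CPM, the next to lowest. Vegfa was at 35.5 CPM in CC-Ex replicate 5, the lowest of the group, with the others between 230.5 and 527.0 CPM. In that rat Aplnr, Flt1, Cdh5, Tek and Tie1 were the lowest of CC-Ex as well. Without CC-Ex replicate 1 the Log2FC of Tie1 in Ex vs. CC-Ex was -0.42 in place of -0.29, and without replicate 5 that of Vegfa was -0.06 in place of -0.28.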

How the results depend on the processing

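The log2 differences of Vwf, Aplnr, Kdr, Cdh5 and Tie1 between monocrotaline and saline rats kept their sign under each alternative and each left-out rat. Vwf lay between 1.321 and 1.497 in sedentary and between 0.90 and 1.28 in trained rats when 1 rat was left out, and Aplnr between -2.03 and -1.66 and between -1.16 and -0.50. The counts of genes that passed were less stable, and the cause was not tested. In Sed vs. CC-Sed, the 701 genes became 1336 with DESeq2, 2474 with limma-voom and 203 with the DEG criterion, and lay between 173 and 1726 with 1 rat left out. In Ex vs. CC-Ex, the 108 became 685 with DESeq2, 23 with upper-quartile scaling, 1 with only the 12 rats, 42 with the library number, 1043 with limma-voom and 57 with the DEG criterion, and lay between 2 and 847 with 1 rat left out. Of the list genes, the 11 of Sed vs. CC-Sed became 22 with limma-voom and 5 with the DEG criterion, and lay between 3 (without Sed replicate 2, Sed replicate 3, CC-Sed replicate 1, 3 or 6) and 20 (without CC-Sed replicate 4). Pgf, Notch4 and Adm passed in each of these 12 fits. The 4 of Ex vs. CC-Ex became 8 with DESeq2 and with limma-voom, 1 with upper-quartile scaling and with the library number, and 0 with only the 12 rats, and lay between 0 (without any 1 of the Ex rats, or CC-Ex replicate 5 or 6) and 7 (without CC-Ex replicate 1).

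Replicate numbers 1 to 6 recur in all groups. With the replicate block, 1 gene passed in Ex vs. CC-Ex, and 6 list genes passed in Sed vs. CC-Sed and 0 in Ex vs. CC-Ex. The deviations of same-numbered rats from their group means had a mean correlation of 0.0947 in Sed vs. CC-Sed (4 of 6 pairs over 0.1, range -0.505 to 0.357). In Ex vs. CC-Ex the mean was -0.172 (1 of 6 pairs over 0.1). In these comparisons 2 and 0 rats correlated best with their own number. Whether the numbers mark a pairing was not tested further.

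Signs turned where values were near 0. The correlation of Vwf was 0.028 with Flt1 and 0.088 with Cdh5 under upper-quartile scaling. With 1 rat left out it lay between -0.184 and 0.243 for Kdr, -0.138 and 0.085 for Flt1, -0.077 and 0.093 for Cdh5, and -0.027 and 0.279 for Tie1. With limma-voom the Log2FC of Flt1 was 0.0845 in CC-Sed vs. CC-Ex and 0.0594 in the interaction, and that of Tie1 -0.0185 in Sed vs. Ex. In Ex vs. CC-Ex, Tek was -0.0094 with upper-quartile scaling and -0.0636 with the library number, and Flt4 was -0.0395 with upper-quartile scaling, -0.01235 with the library number and -0.03023 with limma-voom. With 1 rat left out, Flt4 lay between -0.0311 and 0.106 and Tek between -0.0416 and 0.103 in Ex vs. CC-Ex, and Vegfa between -0.207 and 0.437 in Sed vs. CC-Sed. In Sed vs. Ex the ranges were -0.0792 to 0.116 for Flt1, -0.131 to 0.0561 for Cdh5 and -0.0487 to 0.114 for Tie1. In CC-Sed vs. CC-Ex they were -0.152 to 0.229 for Vwf, -0.102 to 0.176 for Kdr, -0.218 to 0.161 for Flt1, -0.0592 to 0.170 for Cdh5 and -0.683 to 0.0855 for Vegfa. For the interaction they were -0.249 to 0.0290 for Kdr, -0.230 to 0.149 for Flt1, -0.0173 to 0.212 for Cdh5 and -0.0359 to 0.189 for Tie1.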
